A study of Mus musculus with 10 samples.

Results

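Tumor cells sorted from mammary tumors of b3KOM hosts were set against tumor cells sorted from tumors of wild-type (WT) hosts, on 4 of the 10 arrays of the series. The 2 arrays titled as KOM tumor and the 2 titled as WT tumor were taken by title, and all 35556 probesets of the deposited value table were compared. b3KOM mice lack integrin beta3 in cells of the macrophage lineage, and the labels give neither the promoter that drives the deletion nor the strain, age or sex of the mice. The tumor cells were the same on both sides: PyMT-BO1-GFP-Luc, a mouse mammary tumor line marked with green fluorescent protein and luciferase, which does not carry the deletion. Mammary fat pads received 100000 cells each, and tumors were taken on day 10. Sorting was by flow cytometry, with no culture step, and 50 ng of RNA was amplified per sample. The other 6 arrays hold CD206hi tumor-associated macrophages (TAMs) from WT (3) and b3KOM (3) hosts and serve here only as a reference for macrophage RNA. The number of mice per array is not given in the labels, so the p-values measure only the spread between these arrays, which may be technical in part.

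A tumor cell receives signals from the immune cells around it. Interferon gamma, made mainly by T and NK cells, binds a receptor found on most cells and switches on guanylate-binding and immunity-related GTPases, the chemokines CXCL9 and CXCL10 and the checkpoint ligand PD-L1. Macrophages carry another set of genes, among them complement C1q, Fc receptor chains, lysosomal proteases and, when they present antigen, MHC class II. A sorted tumor cell fraction can hold RNA of macrophages next to that of the tumor cells, so both sets were followed on every array.

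In tumor cells from b3KOM hosts, the named genes with higher values included 18 macrophage markers and 5 MHC class II genes, and those with lower values included 13 genes of the interferon gamma response. Examples are a 2.30-fold higher value for the class II chain gene H2-Ab1 and a 2.16-fold lower one for the GTPase gene Iigp1. The authors of the series had chosen all 18, all 5 and 12 of the 13 on these same arrays. These counts are therefore no independent evidence, and over all probesets the share with higher values was 48.9%. No single probeset passed the test. With limma on the 4 arrays and Benjamini-Hochberg adjustment over all probesets, 0 of 35556 (0%) had an adjusted p under 0.05, and the smallest adjusted p was 0.421. At an unadjusted p under 0.05, 877 probesets were higher in b3KOM hosts (2.47%) and 1006 were lower (2.83%), together 5.3%. At an unadjusted p under 0.01 with at least a 1.5-fold difference, 188 were higher (0.529%) and 164 lower (0.461%). Both b3KOM arrays lay above both WT arrays for 5549 probesets (15.6%) and below both for 6081 (17.1%). An exact permutation test of 2 arrays against 2 cannot give a two-sided p below 0.333. The median difference over all probesets was -0.0035 on the log2 scale, and 48.9% of probesets were higher in b3KOM hosts.

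The 4 arrays did not group by host over the whole table. Pearson's r across probesets was 0.9911 between the b3KOM arrays and 0.9918 between the WT arrays, and 0.9896 to 0.9928 between arrays of different hosts. The highest of these was between b3KOM array 1 and WT array 1. Array medians were 4.129 to 4.203, against a table median of 4.19 over all 10 arrays, and 16587 probesets lay below that median on all 4 tumor cell arrays. Values below it are called dim here, and a difference between dim values is no exact size. The spread depended on the level. Arrays of one host differed with a median SD of 0.157 below a level of 3 and of 0.058 above a level of 10. The share of probesets at p under 0.01 and 1.5-fold was 1.11% below a level of 3 and 1.75% from there to the table median. It was 0.471% between 6 and 8 and 0.0623% above 10.

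**Figure D1:**
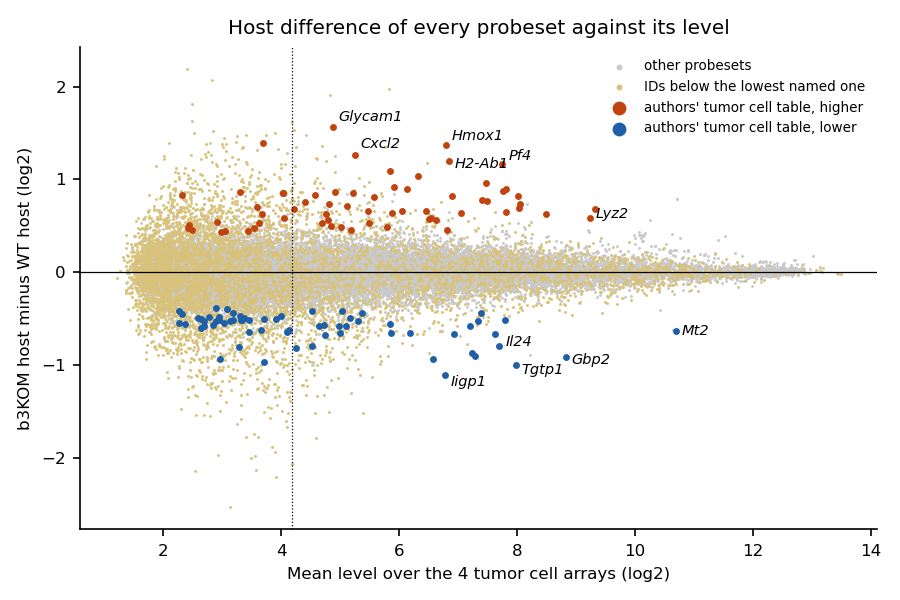
Difference between hosts (b3KOM minus WT, log2) of all 35556 probesets against the mean log2 level over the 4 tumor cell arrays, with 1 point per probeset and the table median of 4.19 as a dotted line. The cloud narrows as the level increases, the authors' 65 higher and 65 lower genes lie along its upper and lower edges, and the widest differences belong to probesets with IDs below the lowest named one.

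Gene names come only from the authors' deposited tables of selected genes for tumor cells (130 rows) and for TAMs (122 rows), which name 251 probesets in all. The tumor cell table was chosen by its authors on this same comparison and these same arrays. It has 65 rows higher and 65 lower in b3KOM hosts, and all 130 had that direction here with no overlap between hosts, which follows from the choice and is no independent evidence. The differences computed here departed from those in the authors' deposited table by a median of 0.0102. The largest p in the authors' deposited table was 0.00996, and here 123 of the 130 had an unadjusted p under 0.01 and 67 also a difference of 1.5-fold. On all 4 arrays, 44 of the 130 were dim.

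The higher and the lower genes of that table differed in where else the genes are expressed. The median higher gene was brighter in TAMs by 4.45 log2 units, and 39 of the 65 were over 4 units brighter. The median lower gene was equally bright in both (-0.00563), 33 of the 65 were dimmer in TAMs, and 1, Ccl8, was over 4 units brighter. Of the 35556 probesets, 20323 outside that table were dimmer in TAMs, 196 were 4 to 5 units brighter and 101 over 5 units. The shares of the lower genes lay near these, so nothing is read from them. The counts of neither direction were used by the choice of the genes, and no test was made of them. Which cells of the sorted samples carried this RNA, tumor cells, macrophages or others, was not tested. A larger number of such cells and more RNA per cell cannot be told apart here either.

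**Figure D2:**
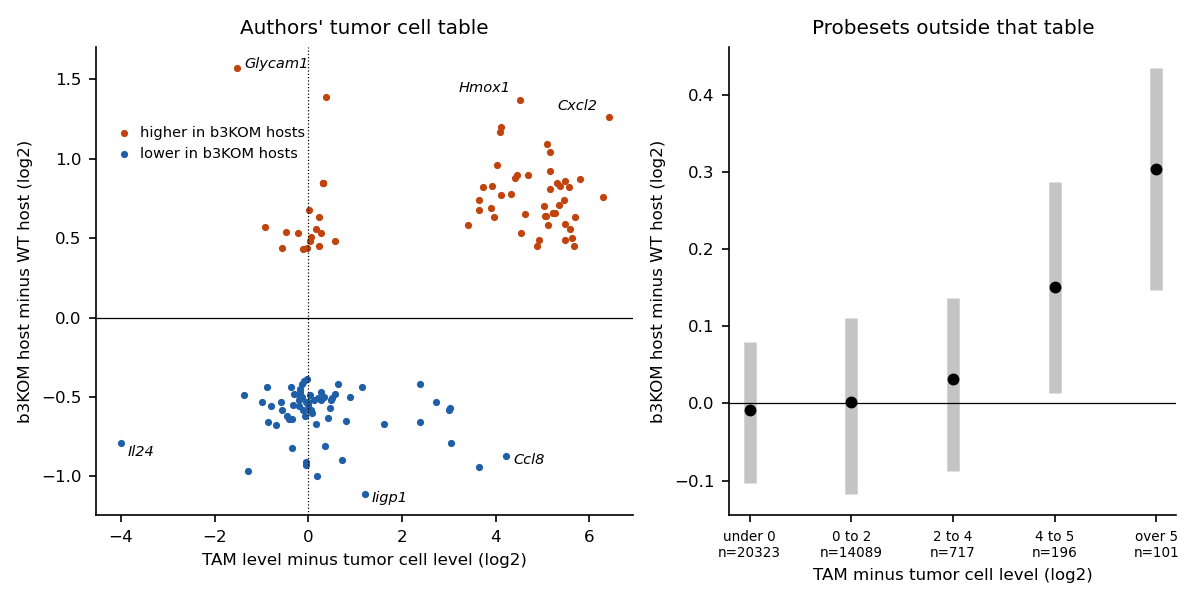
Left, difference between hosts in tumor cells (b3KOM minus WT, log2) of the 130 genes of the authors' tumor cell table against how much brighter they are in TAMs (log2), 1 point per gene. Right, the same difference for probesets outside that table in bins of TAM minus tumor cell level, with points at medians and bars from the first to the third quartile. Most higher genes form a cloud over 3 log2 units brighter in TAMs, most lower genes lie near 0, and outside the table the median goes from -0.009 to 0.304.

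Interferon gamma response genes were lower on the b3KOM arrays. All 13 of the 33 genes on that list with a name here were lower, 12 of them from the authors' tumor cell table, and the background share of lower, non-overlapping probesets is the 17.1% given above. The median difference was -0.79 and the range -1.11 to -0.28, against a median of -0.0035 over all probesets, a contrast that the authors' choice of 12 of the 13 on these arrays fixes. Summed on the linear scale, the 13 measured 1240 and 1290 intensity units on the b3KOM arrays and 2260 and 2210 on the WT arrays. None passed the adjusted test (0 of 13, smallest adjusted p 0.421).

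The immunity-related GTPases, which attack the vacuoles of intracellular parasites, came first. Iigp1 measured 6.19 and 6.25 on the b3KOM arrays and 7.40 and 7.27 on the WT arrays, a log2 difference of -1.11 ± 0.10 (SE, n = 2 per host; limma adjusted p 0.421). Tgtp1 measured 7.53 and 7.43 against 8.53 and 8.44, a difference of -1.0 ± 0.10 (adjusted p 0.421). For both genes the arrays of a host lay much closer together than the hosts, which the choice of genes on these arrays favours. A nearly identical copy of Tgtp1 exists in the mouse genome, so its probeset may read both. Irgm2 measured 6.69 and 6.99 against 7.71 and 7.76 (-0.90 ± 0.14), and Irgm1, a regulator of the other GTPases, had a difference of -0.52. The guanylate-binding protein gene Gbp2 measured 8.35 and 8.40 against 9.33 and 9.24 (-0.91 ± 0.10, adjusted p 0.421). A second one, Mpa2l (now Gbp6), measured 3.95 and 4.31 against 4.97 and 4.87 (-0.79 ± 0.16, adjusted p 0.711), with 1 dim array. Iigp1, Tgtp1, Irgm1, Irgm2 and Gbp2 were bright on all arrays, and their TAM levels of 7.99 to 8.79 lay within 1.21 log2 units of their tumor cell levels. The list as a whole was not that close, with a median of 1.61 log2 units brighter in TAMs. Gm4951, Cd274, Cxcl9, Mpa2l and Cxcl10 were brighter there by 2.39 to 3.64 units and Nlrc5 by 1.72, while Ubd was dimmer (-1.29).

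Further members encode ligands and proteins of antigen presentation. Cd274, which encodes PD-L1, a ligand that restrains T cells, measured 5.01 and 5.05 on the b3KOM arrays and 5.57 and 5.54 on the WT arrays, a difference of -0.53. The chemokine gene Cxcl10, whose product draws CXCR3-bearing T cells, measured 5.92 and 6.30 against 6.94 and 7.16 (-0.94 ± 0.18, adjusted p 0.665). Its neighbour on chromosome 5, Cxcl9, which acts on the same receptor, measured 6.88 and 6.95 against 7.52 and 7.47 (-0.58 ± 0.10, adjusted p 0.58). Cxcl10 had the widest spread within a host of these 3 genes, an SD of 0.27 between the b3KOM arrays. Ubd, a ubiquitin-like gene that interferon gamma and tumor necrosis factor induce, measured 3.16 and 3.27 against 4.18 and 4.20, with 3 dim arrays, so its difference of -0.97 ± 0.10 is no exact size. Nlrc5, the transactivator of MHC class I genes, has its name from the TAM table and was not picked for a difference on these arrays. It was dim on all 4, with 2.59 and 2.69 against 3.09 and 2.75 (-0.28 ± 0.15, adjusted p 0.95). A predicted gene of the same list, Gm4951, had a difference of -0.66. The type I interferon list had only Mx1 and Trex1 named here, both through the TAM table, with differences of 0.04 and -0.03. Mx1 was dim on all 4 arrays, so its small difference says little.

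The DNA just before the start of the interferon gamma genes was searched for the motifs that interferon-activated factors bind. Their shared inducer is what defines the list, so it is no result of these arrays. The interferon-stimulated response element (ISRE) was searched as GAAA, any 2 bases and GAAA, and the gamma-activated site (GAS) as TTCNNNGAA, on both strands, within 250 bases before the start in RefSeq windows of GRCm38.p6. Of the 13 genes, 8 had a window. The ISRE letters stood in 5 of them (Tgtp1, Irgm2, Irgm1, Gbp2 and Cxcl10) and not in those of Ubd, Cxcl9 and Cd274. Of all 32851 windows, 2.98% hold them, and counted by gene it is 3.46%. The GAS letters stood in 2 (Tgtp1 and Irgm2), against 7.02% of all windows and 8.13% counted by gene. The stretches around the matches are shown 5′ to 3′ on the strand of the gene, with the matching letters in capitals.
Tgtp1, chr11:48992294-48992354, minus strand: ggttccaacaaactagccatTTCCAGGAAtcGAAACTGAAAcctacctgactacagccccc
Irgm2, chr11:58214882-58214942, plus strand: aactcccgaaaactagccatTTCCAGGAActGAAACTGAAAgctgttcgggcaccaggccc
Irgm1, chr11:48871421-48871470, minus strand: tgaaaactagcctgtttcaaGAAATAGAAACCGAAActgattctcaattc
Cxcl10, chr5:92349073-92349122, minus strand: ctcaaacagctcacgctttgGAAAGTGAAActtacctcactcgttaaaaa
Gbp2, chr3:142620584-142620633, plus strand: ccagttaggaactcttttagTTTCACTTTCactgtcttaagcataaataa

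Tgtp1 and Irgm2 share the arrangement of the sites. In both the GAS match comes first and the ISRE match begins 11 bases further on, from 88 and 77 bases before the start in Tgtp1 and from 75 and 64 in Irgm2. Over the 61 bases shown, 41 were identical, and over the 21 bases from the first to the last capital, 19 were. Irgm1 has 2 overlapping ISRE matches, 30 and 24 bases before the start, and the capitals of Gbp2 are an ISRE read on the other strand. A match of letters is a description and shows no binding, and no window was at hand for the other members.

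MHC class II genes were higher on the b3KOM arrays, opposite to the interferon gamma genes. All 5 of the 11 list genes named here were higher without overlap, each from the authors' tumor cell table, with a median difference of 1.04 and a range of 0.66 to 1.20. The background share of higher, non-overlapping probesets is the 15.6% given above. The authors had chosen all 5 on these arrays, so nothing is read from that count or from the size of the median. Summed, they measured 653 and 702 intensity units on the b3KOM arrays and 339 and 329 on the WT arrays. H2-Ab1, the beta chain of the class II molecule I-A, measured 7.40 and 7.50 on the b3KOM arrays and 6.34 and 6.15 on the WT arrays, a difference of 1.20 ± 0.12 (SE, n = 2 per host; limma adjusted p 0.421). H2-Aa, its alpha chain, measured 7.93 and 7.97 against 7.05 and 6.93 (0.96 ± 0.10, adjusted p 0.421). For both chains of I-A the hosts were several times further apart than the arrays of a host, a gap that the authors' choice favours. H2-Eb1, the beta chain of I-E, measured 6.29 and 6.49 against 5.08 and 5.51 (1.09 ± 0.19, adjusted p 0.6). Cd74, the invariant chain that guides class II to the endosome, measured 6.79 and 6.90 against 5.82 and 5.77 (1.04 ± 0.10, adjusted p 0.421). H2-DMa, a chain of the peptide exchanger, had a difference of 0.66. The H2 genes lie together on chromosome 17. Interferon gamma is a known inducer of class II too, so on these arrays genes with that inducer had values in both directions. In TAMs all 5 were brighter by 4.03 to 5.27 log2 units.

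Class II promoters are known for a Y box, which the factor NF-Y binds. Its letters CTGATTGG, searched on both strands after the values were seen, stood in the windows of H2-Aa and H2-Eb1 and not in that of H2-DMa. Of all windows, 3.83% hold these letters, and counted by gene it is 4.43%. They stood in the windows of Cxcl10 and Cxcl9 as well, 2 of the 8 interferon gamma windows. None of the 3 class II windows held the ISRE or GAS letters. The class II stretches are shown because the element is known from these genes.
H2-Aa, chr17:34287847-34287894, minus strand: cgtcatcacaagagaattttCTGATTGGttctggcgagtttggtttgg
H2-Eb1, chr17:34305785-34305832, plus strand: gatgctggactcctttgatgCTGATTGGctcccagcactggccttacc

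The macrophage markers were higher too. On the b3KOM arrays all 18 of the 34 list genes named here were higher without overlap, against 15.6% of all probesets, with a median difference of 0.64 and a range of 0.45 to 1.17. The authors had chosen all 18 on these arrays, so nothing is read from that count, and none passed the adjusted test. Of the 18 defining markers set for macrophages, 12 had a name, all 12 were higher and 0 were dim on all 4 arrays. Their summed level was 2700 and 2890 intensity units on the b3KOM arrays and 1850 and 1720 on the WT arrays, against 45700 to 47900 on the TAM arrays. The part of these markers in the differences of other genes was not tested.

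Pf4, a platelet chemokine that macrophages also make, measured 8.37 and 8.27 on the b3KOM arrays and 7.23 and 7.08 on the WT arrays (1.17 ± 0.11, adjusted p 0.421). Laptm5, a lysosomal transmembrane protein of leukocytes, measured 7.18 and 7.42 against 6.48 and 6.48 (0.82 ± 0.12, adjusted p 0.52). Ctss, the antigen-processing protease cathepsin S, measured 8.37 and 8.37 against 7.78 and 7.59 (0.69 ± 0.11, adjusted p 0.556). In each of these genes the gap between hosts was several times the spread within a host, which picking them by p on these arrays favours. The markers that follow were not among those picked by smallest p, and their differences were 0.45 to 0.70. Csf1r, the receptor of macrophage colony-stimulating factor, measured 5.38 and 5.44 against 4.98 and 4.94, a difference of 0.45. Cd68, a lysosomal glycoprotein, had a difference of 0.66, and Itgam, the integrin alpha M chain and the only integrin gene named here, one of 0.56. Lyz2, lysozyme, measured 9.55 and 9.51 against 9.05 and 8.84, a difference of 0.58. Mpeg1, a pore-forming protein of phagocytes, differed by 0.53, F13a1, a coagulation factor subunit, by 0.50 and Ms4a7 by 0.49. Ccr2, the chemokine receptor of monocytes, was dim on all 4 arrays with a difference of 0.70.

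Complement, Fc receptor and DAP12 genes form the sensing arm of the macrophage. All 10 of 24 list genes named here were higher without overlap, against 15.6% of all probesets, but the authors had chosen all 10 on these arrays. Their median was 0.65 and their range 0.45 to 0.88, and 6 of the 10 are also counted above as macrophage markers. Tyrobp, the DAP12 adaptor that many myeloid receptors need for signaling, measured 8.11 and 8.31 against 7.27 and 7.38 (0.88 ± 0.12, adjusted p 0.428). Its partner receptors had like differences. Clec5a measured 3.79 and 3.67 against 2.79 and 2.93 (0.87 ± 0.11, adjusted p 0.421), dim on all 4 arrays. Sirpb1a measured 5.29 and 5.41 against 4.37 and 4.61 (0.86 ± 0.13, adjusted p 0.52). Clec4n, the fungal receptor dectin-2, which signals through the Fc receptor gamma chain, measured 5.48 and 5.48 against 4.69 and 4.84 (0.71 ± 0.11). That chain, Fcer1g, differed by 0.63, and Fcgr3, a low-affinity IgG receptor, by 0.58. C1qa, C1qb and C1qc, which encode the chains of the C1q initiator of complement and lie side by side on chromosome 4, differed by 0.45, 0.64 and 0.65. C3ar1, the receptor of the complement fragment C3a, differed by 0.66.

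**Figure D3:**
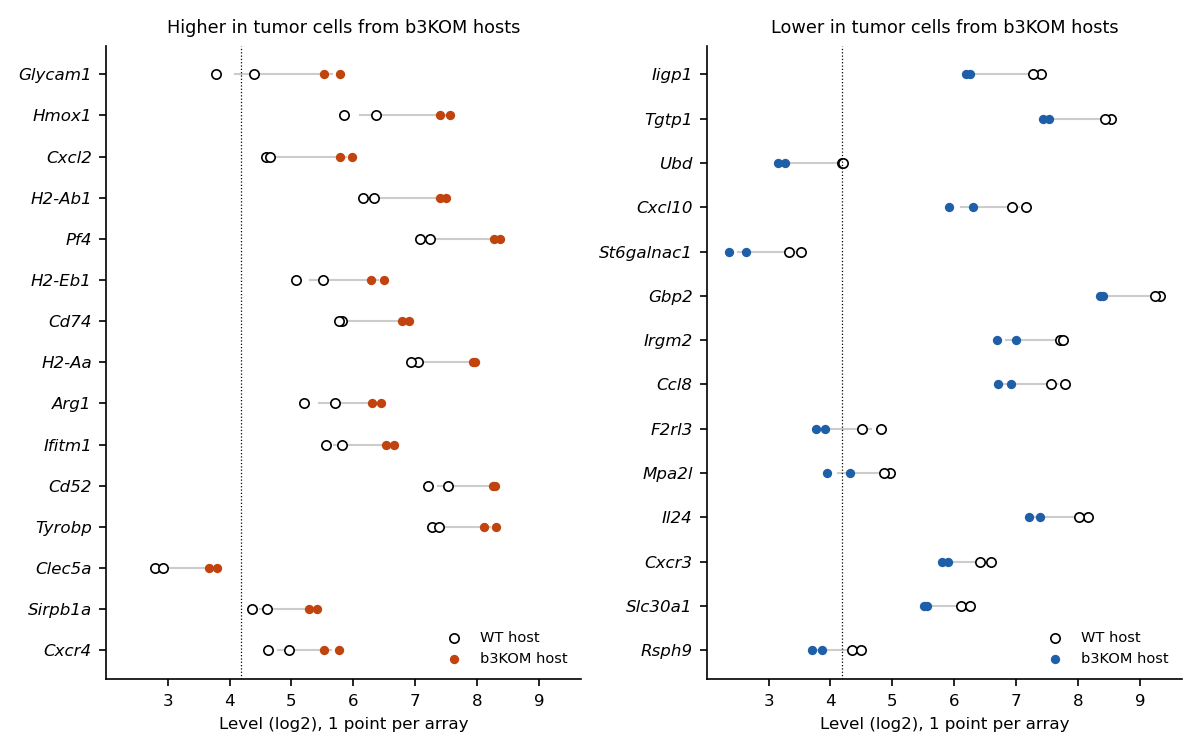
Log2 level on each of the 4 tumor cell arrays for the 15 higher genes and 14 of the 15 lower genes with the largest differences under the naming rule, 1 point per array, with filled points for b3KOM hosts, open points for WT hosts, a grey line between host means and the table median dotted. In no row do the hosts overlap, and Glycam1, Hmox1 and Arg1 show the widest spread within a host.

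Chemokine genes were divided. Of 5 named of 24, Cxcl2 and Pf4 were higher and Cxcl9, Cxcl10 and Ccl8 were lower with b3KOM hosts. Cxcl2, which draws neutrophils, measured 5.78 and 5.98 against 4.59 and 4.66, a difference of 1.26 ± 0.12 (adjusted p 0.421). Ccl8, which draws monocytes, measured 6.92 and 6.70 against 7.79 and 7.57, a difference of -0.87 ± 0.14 (adjusted p 0.535). All 5 were brighter in TAMs than in tumor cells, Cxcl2 by 6.41 log2 units, Pf4 by 4.09, Ccl8 by 4.23, Cxcl10 by 3.64 and Cxcl9 by 3.0. Among these 5, genes brighter in TAMs had values in both directions. Over the whole tumor cell table, 39 higher genes and 1 lower gene were over 4 units brighter in TAMs, and 46 and 11 were over 1 unit brighter. Cxcl2 and Pf4 are neighbours on chromosome 5.

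Cytokine and receptor genes were divided as well, with 3 of 5 named members higher. Il1b, the inflammatory cytokine interleukin 1 beta, measured 4.81 and 4.75 against 4.07 and 3.97 (0.76 ± 0.10, adjusted p 0.421), with both WT arrays dim. Cxcr4, a receptor that guides leukocyte and tumor cell migration, measured 5.77 and 5.52 against 4.96 and 4.62 (0.85 ± 0.17, adjusted p 0.715). Il24, a cytokine of the interleukin 10 family, measured 7.39 and 7.20 against 8.16 and 8.01 (-0.79 ± 0.12, adjusted p 0.528). In TAMs, Il24 was at a level of 3.69, a difference from tumor cells of -4.0, the lowest of all 130 genes. Il1b and Cxcr4 were brighter in TAMs, by 6.29 and 5.30 log2 units. Cxcr3, the receptor of CXCL9 and CXCL10, measured 5.80 and 5.90 against 6.60 and 6.42 (-0.66 ± 0.12, adjusted p 0.623). It was the only one of 9 T and NK cell markers with a name here. The T cell receptor gene Tcra, which the naming rule leaves out and which was added after its values were seen, was dim with 2.50 and 2.57 against 2.96 and 3.06 (-0.48 ± 0.10, adjusted p 0.736). The part of T cells in the sort was not tested. Tnfrsf10b, a death receptor named through the TAM table, differed by 0.05.

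Heme and metal genes were led by Hmox1, the enzyme that breaks down heme. It measured 7.40 and 7.56 on the b3KOM arrays and 6.36 and 5.85 on the WT arrays, a difference of 1.37 ± 0.21 (adjusted p 0.52), and was 4.51 log2 units brighter in TAMs. The zinc genes lay on the other side. Mt2, a metal-binding metallothionein, measured 10.3 and 10.4 against 11 and 10.9 (-0.63 ± 0.10, adjusted p 0.528). Slc30a1, a zinc exporter of the cell surface, measured 5.56 and 5.51 against 6.11 and 6.25 (-0.65 ± 0.10, adjusted p 0.545). Mt2 and Slc30a1 are both known targets of the zinc-sensing factor MTF1, and both were within 0.80 log2 units of their TAM level. Hspa1l and Mgst2, named through the TAM table, differed by -0.16 and -0.30, so 4 of the 5 named of 20 were lower.

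Other myeloid groups were small. Arg1, which breaks down arginine and marks alternatively activated macrophages, measured 6.30 and 6.45 against 5.20 and 5.71 (0.92 ± 0.21, adjusted p 0.76). The other 3 named of 15 on that list did not share one direction, with Ccl8 lower as above and, through the TAM table, Mgl2 at 0.30 ± 0.33 and Chi3l4 at -0.14 ± 0.10. Apoe and Apoc2, apolipoprotein genes that neighbour each other on chromosome 7, measured 9.53 and 9.80 against 8.91 and 9.07, and 5.22 and 5.14 against 4.44 and 4.43. Their differences were 0.68 ± 0.14 and 0.74 ± 0.10, while Apoc1, named through the TAM table and dim, differed by -0.15 ± 0.13. The anti-apoptotic genes Bcl2a1a, Bcl2a1b and Bcl2a1d differed by 0.82, 0.77 and 0.74. They are nearly identical copies on chromosome 9, and Bcl2a1a and Bcl2a1d measured the same on both b3KOM arrays to 2 decimals, so they count as 1 observation at most. Of the leukocyte genes, Cd52, a small surface glycoprotein, measured 8.25 and 8.28 against 7.52 and 7.21 (0.90 ± 0.14, adjusted p 0.535), and Srgn, the granule proteoglycan serglycin, 7.75 and 7.87 against 6.98 and 7.07 (0.78 ± 0.11, adjusted p 0.421). Sla, an adaptor of receptor signaling, and Gpr65, a proton-sensing receptor, differed by 0.63 and 0.59, Sla at dim levels. Ifitm1, an interferon-inducible membrane protein, measured 6.53 and 6.66 against 5.82 and 5.56 (0.90 ± 0.13, adjusted p 0.515). That direction was unlike that of the interferon gamma list, and Ifitm1 was 4.70 log2 units brighter in TAMs.

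**Figure D4:**
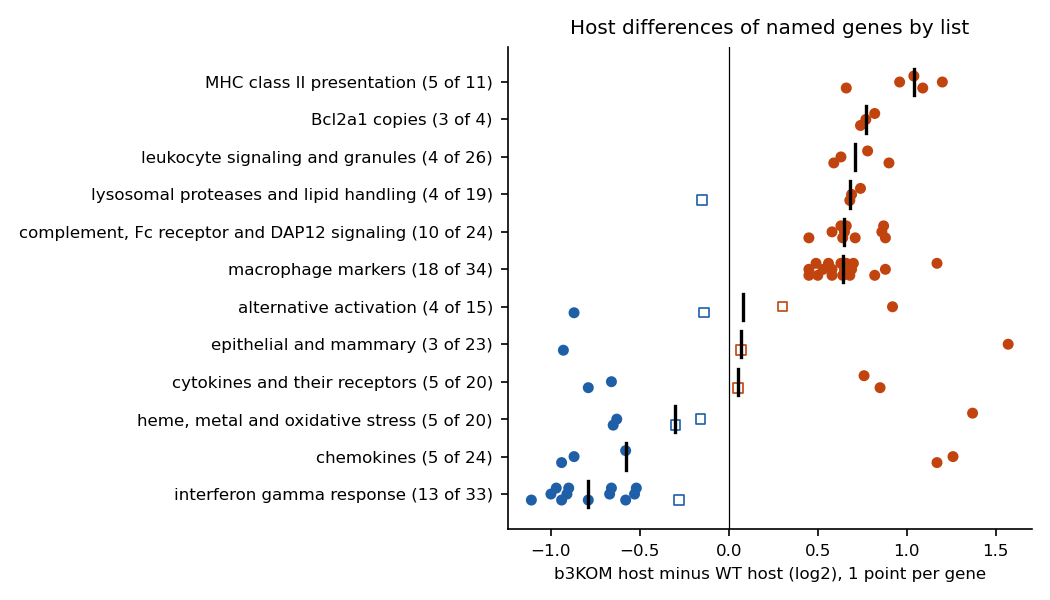
Difference between hosts (b3KOM minus WT, log2) of each named gene in the 12 lists with at least 3 named members, 1 point per gene, filled for genes of the authors' tumor cell table and open squares for genes named only through the TAM table, with the list median as a black bar and named of listed genes in brackets. The interferon gamma genes all lie left of 0, and the class II, macrophage and complement genes all right of it. The open squares lie closer to 0 than most filled points. The authors chose the filled genes on these arrays, which fixes their distance from 0, so nothing is read from that contrast.

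A few genes with large differences were no brighter in TAMs. Glycam1, a mucin-like gene of the mammary gland and of lymph node vessels, had the largest difference of the named genes, with 5.79 and 5.53 on the b3KOM arrays and 3.78 and 4.40 on the WT arrays (1.57 ± 0.25, adjusted p 0.531). The WT arrays had an SD of 0.44 and 1 was dim, and in TAMs the level was 3.36. St6galnac1, a sialyltransferase of mucin-type glycans, was dim throughout with 2.64 and 2.36 against 3.33 and 3.52 (-0.93 ± 0.15). F2rl3, the thrombin receptor PAR4, measured 3.76 and 3.92 against 4.51 and 4.82 (-0.82 ± 0.15), and Rsph9, a protein of the ciliary radial spoke, 3.86 and 3.70 against 4.35 and 4.50 (-0.64 ± 0.12). Both were dim on the b3KOM arrays. Top2a, a topoisomerase of dividing cells and the only one of 18 cell cycle genes named here, was dim with a difference of 0.44. Gja1, which encodes connexin 43, has its name from the TAM table and is bright in these cells, with 10.5 and 10.4 against 10.5 and 10.3 and a difference of 0.07 ± 0.11. None of the 6 defining markers of mammary epithelium has a name here, nor has any of B cells, neutrophils, fibroblasts, endothelium or adipocytes, so the label of tumor cells was not checked against them and Itgb3 was not analysed here.

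Genes of the authors' TAM table were picked on the macrophage arrays. The authors call the genes of both tables unique, and what that word means is not known here. If genes shared with the tumor cell comparison were removed, the tumor cell arrays took part in the choice. The 1 gene in both tables, Zfp248, is left out of the counts below, a step that did use the tumor cell arrays. It was lower in b3KOM hosts without overlap (-0.49 ± 0.09, limma unadjusted p 0.00528). In tumor cells, 57 of the 121 genes of the TAM table alone were higher in b3KOM hosts and 64 lower. Their median difference was -0.017 and their range -0.552 to 0.658. At an unadjusted p under 0.05, 5 were higher (4.13%) and 1 was lower (0.826%), against 2.47% and 2.83% of all probesets. These counts rested on single arrays, with 1 higher and 3 lower without WT replicate 1, 1 and 1 without WT replicate 2, 3 and 2 without b3KOM replicate 1, and 4 and 4 without b3KOM replicate 2. None (0) passed the adjusted test, where the smallest adjusted p was 0.762. Arrays did not overlap in 21 higher genes (17.4%) and 19 lower ones (15.7%), shares near the 15.6% and 17.1% of all probesets. The gene with the smallest p, Them5, an acyl-CoA thioesterase, was dim with 3.31 and 3.24 against 2.89 and 2.80 (0.43 ± 0.10, unadjusted p 0.0103). Epha4, an ephrin receptor, measured 5.71 and 5.86 against 5.51 and 5.37 (0.34 ± 0.12, unadjusted p 0.0371), and Zfp341, a zinc finger protein, 5.37 and 5.17 against 4.90 and 4.90 (0.37 ± 0.12, unadjusted p 0.0309). Ear1, an eosinophil-associated ribonuclease, Cyp2b23 and Fxyd1 differed by 0.66, 0.35 and 0.26, all dim. On the lower side, Rem2, a small GTPase, was dim at -0.30 ± 0.10 (unadjusted p 0.0346). Pcgf1, a Polycomb subunit, measured 6.41 and 6.16 against 6.81 and 6.47 (-0.36 ± 0.17), and Mgst2, a glutathione transferase, 6.60 and 6.89 against 6.98 and 7.11. Nrg2, a neuregulin, and Slc47a2, a transporter, differed by -0.28 and -0.55. In TAMs, where the authors chose these genes, Mgst2 measured 3.93 in b3KOM and 5.14 in WT hosts, and Pcgf1 5.42 and 5.73. Rem2, Nrg2 and Slc47a2 went the other way in TAMs, with 2.88 and 2.68, 4.17 and 3.95, and 3.55 and 3.21.

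Outside the authors' table, probesets bright in TAMs had higher values as well. They were ordered by TAM level minus tumor cell level, which weighs both hosts equally. The median difference between hosts was -0.009 for the 20323 probesets dimmer in TAMs, 0.002 for 14089 probesets 0 to 2 log2 units brighter, 0.031 for 717 at 2 to 4 units, 0.151 for 196 at 4 to 5 units and 0.304 for 101 over 5 units. The share with higher values in b3KOM hosts was 46.9%, 50.5%, 57.2%, 77.6% and 90.1% in that order. Over 5 units, 63.4% were higher without overlap and 3.96% lower, against 15.6% and 17.1% of all probesets, and at an unadjusted p under 0.05 it was 31.7% and 0.99%. These probesets share their arrays and are not independent. Their median level was 4.17 and 4.53 on the b3KOM arrays and 4.17 and 4.04 on the WT arrays, so b3KOM array 1 equalled WT array 1 to 2 decimals and the medians of the hosts touched. Leaving out 1 array at a time gave medians of 0.241 to 0.405 for this bin and of 0.118 to 0.182 for that at 4 to 5 units.

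The probesets with the smallest p in either direction have no name here. Probeset 10339687 measured 3.56 and 3.42 against 1.17 and 1.42 (2.19 ± 0.13), and probeset 10343755 measured 5.07 and 4.91 against 3.36 and 3.38 (1.62 ± 0.11). Probeset 10342587 measured 2.31 and 2.12 against 3.75 and 3.66 (-1.49 ± 0.12), and probeset 10338352 measured 2.32 and 2.35 against 3.56 and 3.66 (-1.28 ± 0.10). All 4 had an adjusted p of 0.421. They belong to the 6656 probesets whose IDs lie below the lowest named one, a block noticed after the values were seen, with a median level of 3.33. In it 224 probesets (3.37%) had p under 0.01 and a 1.5-fold difference, against 128 of the other 28900 (0.443%), of which 94 were higher and 34 lower. The deposited value table marks no control probesets, so what these IDs stand for is not known here.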

How the data were processed

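Per the submitters' processing notes, the authors made the deposited log2 values with RMA in Affymetrix Expression Console. RMA corrects background, quantile-normalizes the arrays and gives 1 log2 value per probeset. Their versions, the array model and the build are not given in the sources read. Per the file headers, the authors' deposited tables give a log2 fold change (WT over b3KOM), a mean, a t score and a p-value, taken as unadjusted. Differences here run b3KOM minus WT.

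Host means were compared with limma 3.58.1 (lmFit, eBayes; R 4.3.3, statmod 1.5.0) on the 4 tumor cell arrays and all 35556 probesets, with 2 residual and 2.25 prior degrees of freedom. The script was tested on simulated data. Summed levels are sums of 2 to the power of the log2 value. The number of arrays limits precision.

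The comparison, gene lists and naming rule were chosen with earlier results of these data known. Named are up to 15 genes per direction of the authors' tumor cell table by size without overlap, up to 4 per list by p, up to 6 per direction of the TAM table by p and 2 unnamed probesets per direction. Other list members are given with their difference, and 1 gene is not reported here by name. Predicted genes, clones, small RNAs, olfactory receptors and receptor segments were left out, except where a count is spelled out. Of the names, 122 of 130 and 118 of 122 matched 1 current RefSeq symbol. Promoter windows are RefSeq's for GRCm38.p6. Alternatives were filters, other fits and scalings, single arrays left out and repeated probesets.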

Additional observations from a re-analysis of the deposited data

How the results depend on the processing

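No probeset passed an adjusted p of 0.05 under any alternative run (0 throughout, against 1883 at an unadjusted p under 0.05), and the smallest adjusted p was 0.0561, in the fit on all 10 arrays. Of 60 named genes followed over 810 values, 2 changed sign, Mgl2 (-0.13 to 0.73 without 1 array, the lowest without b3KOM replicate 2) and Gja1 (-0.0004 to 0.14, the lowest without WT replicate 2). Counts at p under 0.01 and 1.5-fold, 188 higher and 164 lower, became 114 and 85 with probesets above the table median on at least 2 arrays, 58 and 61 with a mean above it, and 88 and 58 with all 10 arrays. Chosen after seeing the data, dropping the low IDs gave 108 and 46, and with 1 probeset per set of identical values also 59 and 44. At p under 0.05, 877 higher and 1006 lower became 529 and 532, 483 and 485, and 519 and 526 under those first 3 settings. The first filter keeps probesets bright in 1 host only. Among TAM table genes, 5 higher at p under 0.05 became 2 and 3 with the filters, and 1 lower became 0 with both filters and with an intensity trend and robust fitting, 2 with all 10 arrays and 4 without the low IDs, with or without repeated values. Leaving out 1 array (its partner is then assumed to vary like the other host) gave 112 to 238 higher and 111 to 222 lower at p under 0.01 and 1.5-fold, the lowest without b3KOM replicate 2 for the higher ones, 734 to 1131 and 800 to 1237 at p under 0.05, and 1 to 4 TAM table genes in each direction. List medians without 1 array were -0.93 to -0.66 for the interferon gamma genes, 0.54 to 0.71 for macrophage markers, 0.56 to 0.74 for complement and Fc genes, 0.61 to 0.69 for lysosomal genes and 0.69 to 0.85 for Bcl2a1 copies. With the filters the leukocyte median was 0.78 and 0.84 and the epithelial one 0.82 and 0.82, and with the second filter the heme and metal median was -0.46 and the medians of unlisted probesets 2 to 4 and 4 to 5 units brighter in TAMs were 0.049 and 0.245, since fewer members stayed. The cause of the other shifts was not tested. No paired analysis was possible because the replicate numbers follow accession order and pair no samples. The ISRE and GAS counts stayed at 5 and 2 with all 300 bases of the window.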

Other observations

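Repeated probesets make up much of the remainder. Of all probesets, 701 had the same 10 values as another one. A set of 50 measured 4.37 and 4.55 on the b3KOM arrays and 3.56 and 3.66 on the WT arrays, a difference of 0.85 ± 0.12 with an adjusted p of 0.421, and 3 of them stand in the authors' tumor cell table under predicted names. Outside the low IDs and the authors' tumor cell table, 61 probesets passed p under 0.01 and 1.5-fold, 51 higher and 10 lower, and 47 of these belong to that set of 50. The other 14 probesets held 13 distinct profiles. With each profile counted once, 45 higher and 32 lower profiles remained outside the low IDs, in and out of the table together.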
